A study of Mus musculus with 30 samples.

Results

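This account covers the response of GFP-negative mesenchymal cells of the mouse colon to DSS-induced colitis. Its members are 6 of the 30 samples of the series, chosen by their labels alone: 3 DSS colon Tomato libraries and 3 normal colon Tomato libraries, which are compared over every gene of the table that holds both. All 6 came from C57BL/6 mice that carry ColVI-cre and the Rosa mTmG reporter, so the normal mice carry both transgenes too. In mTmG cells a membrane Tomato protein is made until Cre acts, after which the cell and its descendants make a membrane GFP. The Tomato cells are therefore those in which the Cre, under a collagen VI promoter, had not recombined the reporter. They are defined by what is missing and can hold several kinds of cell. The DSS group is labelled with DSS-induced colitis as its disease model and the normal group with none. Cells were isolated fresh. The labels do not state the age and sex of the mice, the DSS dose or the days of treatment, and no label ties a library to a mouse, so that p-values measure the spread between these libraries.

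Dextran sulfate sodium in drinking water damages the colon epithelium and lets bacteria reach the tissue beneath it. Fibroblasts of the lamina propria and submucosa sense cytokines such as interleukin-1, tumour necrosis factor, interleukin-17 and interferons. They answer with chemokines that draw in neutrophils and monocytes and with interleukin-6 family cytokines. In the healthy gut the same cells supply the crypt base with R-spondins, EGF family ligands and BMP antagonists, and they build the collagen and elastic matrix.

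Expression was measured by 3' RNA sequencing (QuantSeq), which reads 1 short tag near the 3' end of a transcript, so a value does not grow with gene length. All values are the authors' normalised counts. From the spacing of low values the libraries held an estimated 3013000 to 3371000 reads in the DSS group and 3736000 to 3966000 reads in the normal group. Pearson's r across the genes tested, on the log2 scale, was 0.946 to 0.966 among the DSS libraries and 0.837 to 0.900 between DSS and normal libraries. Within the normal group, libraries 2 and 3 had r = 0.951, while library 1 had r = 0.921 and 0.897 with them and stands apart. Library numbers in the titles are 81 to 83 in the DSS group and 1 to 3 in the normal group, so any difference in preparation cannot be told apart from DSS.

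The mesenchymal label was checked first. Collagen I and decorin transcripts, which mark fibroblasts, were abundant in every library: Dcn had 28947, 21611 and 22719 normalised counts in the DSS libraries, against 27660, 31156 and 25901 in the normal libraries. Col1a1 had 14870, 11199 and 11014 with DSS, against 11788, 15427 and 14411 in normal cells. Neither gene passed the test, with log2 fold changes of -0.22 and -0.17. Of 10 general fibroblast and mesenchymal markers tested, 1 was higher and 1 was lower with DSS, beside 6.03% and 4.27% of all genes tested. Their median log2 fold change was -0.19. Pdpn was the increase (adjusted p = 0.0249) and Vim the decrease (adjusted p = 0.0377). Each was called in 2 of the 6 fits that left out 1 library. Ptprc, the pan-leukocyte antigen CD45, had at most 7 in any DSS library and at most 10 in any normal library. Other leukocyte transcripts were higher. The summed level of T, B and plasma cell markers was 3629, 2116 and 4770 with DSS, against 5378, 8541 and 33346 in normal cells. S100a8 and S100a9 rose with DSS, as given below.

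DSS was accompanied by a large set of increases led by acute-phase, chemokine and cytokine genes, and by a set of smaller decreases that included matrix and Cd34+ fibroblast genes. Of 16386 genes in the table, 13025 averaged 10 or more in the DSS or the normal group and were tested with limma on log2(value + 1). At an adjusted p under 0.05, 785 genes were higher with DSS (6.03% of those tested) and 556 were lower (4.27%). A gene list with few calls can lie near these shares. The median log2 fold change over all genes tested was -0.02. Among the genes called, the increases were the larger. On this scale 243 called genes rose and 79 fell at least 4-fold, and 38 rose and 0 fell at least 16-fold. The count of calls depended on the libraries. It was 265 higher and 95 lower without DSS library 2, 326 and 151 without DSS library 3, and 486 and 218 without normal library 2. Of all calls, 252 increases and 82 decreases were kept in each of the 6 fits that left out 1 library. Scaling each library to the same total moved the median log2 fold change to -0.14 and the split to 612 higher and 776 lower. The authors' deposited table, made with DESeq, has a false discovery rate under 0.05 for 76 of the genes tested (0.583%). Of these, 67 were higher and 9 lower, and 68 were called by limma too. The 67 include Saa3, Hp and Lcn2. The 9 include Traf7 and Psmb6-ps2, each high in normal library 2 alone. Rspo3, Ereg (rate 0.0856) and the matrix and Cd34+ fibroblast genes named below as lower are not among the 76. Postn had a rate of 0.861, Ecm1 0.452 and Aspn 0.239.

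**Figure D1:**
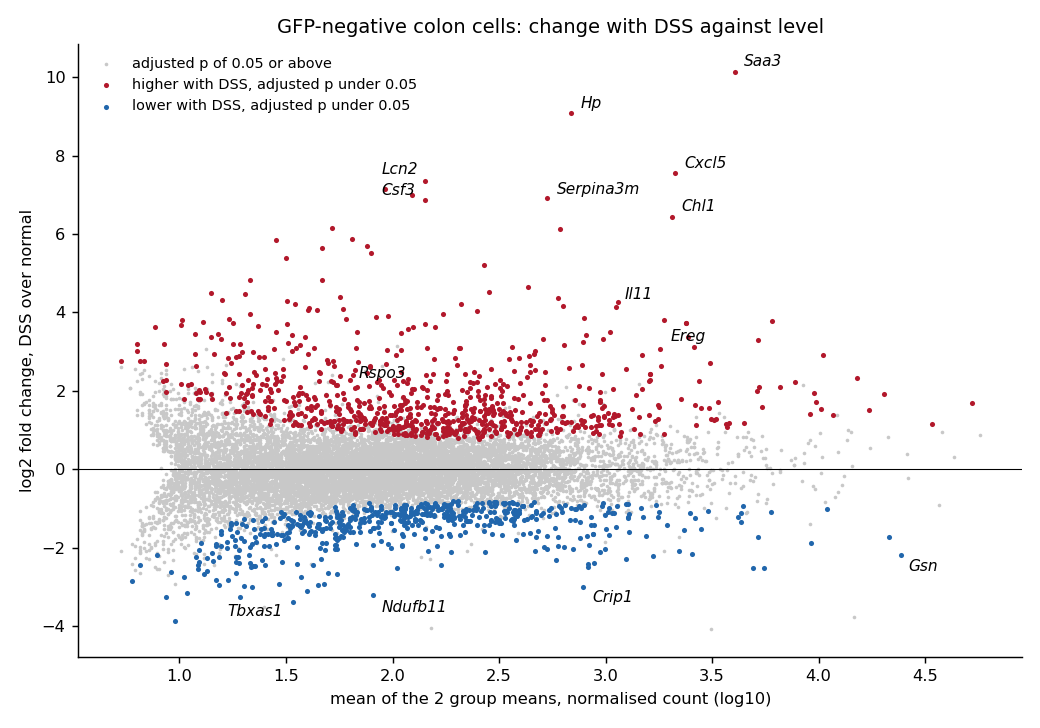
Each point is 1 of the 13025 genes tested, with the log10 of the mean of the group means (normalised counts) on the x axis and the log2 fold change of DSS over normal GFP-negative cells on the y axis. Red points are the 785 genes higher and blue points the 556 genes lower at an adjusted p under 0.05. Increases reach 10.13 (Saa3), while 0 of the genes called lower fell at least 16-fold.

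The acute-phase genes rose furthest. Saa3 encodes serum amyloid A3, an extrahepatic member of the serum amyloid A family, and lies on chromosome 7 at 46711998 to 46715700 (mm10). It had 9172, 6453 and 8633 normalised counts in the DSS libraries, against 3, 4 and 17 in the normal libraries. The groups did not overlap, and the log2 fold change was 10.13 ± 0.47 (SE, adjusted p = 1.07e-06). Hp, on chromosome 8 at 109575128 to 109579172, encodes haptoglobin, which binds free haemoglobin. It had 811, 1882 and 1440 with DSS, against 13, 0 and 0 in normal cells. All of the normal signal came from library 1, and the log2 fold change was 9.08 ± 0.98 (adjusted p = 0.00163). Lcn2, on chromosome 2 at 32384633 to 32388252, encodes lipocalin 2, which withholds iron from bacteria by binding their siderophores. It had 374, 253 and 222 with DSS, against 0, 4 and 0 in normal cells, a log2 fold change of 7.34 ± 0.58 (adjusted p = 1.86e-05). In bulk samples such as these, more cells of a type and more RNA per cell cannot be told apart.

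The promoters of Saa3 and Lcn2 are shown because these genes were among the largest increases and had near no reads in normal cells. Each window runs from 250 bases before to 50 bases after the RefSeq start (GRCm38.p6, minus strand for both). The Saa3 window is chr7:46715627-46715926 and the Lcn2 window is chr2:32387690-32387989. Both strands were searched for the NF-kB consensus, for the STAT motif TTCNNNGAA and for the C/EBP motif TTGCNNAA, and capitals mark the matches, both of which are to the C/EBP motif:
Saa3: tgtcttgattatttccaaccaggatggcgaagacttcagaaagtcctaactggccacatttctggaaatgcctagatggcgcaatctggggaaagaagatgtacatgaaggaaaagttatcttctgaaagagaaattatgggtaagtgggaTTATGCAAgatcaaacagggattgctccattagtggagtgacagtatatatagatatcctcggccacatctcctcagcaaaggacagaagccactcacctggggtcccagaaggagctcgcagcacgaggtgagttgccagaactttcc
Lcn2: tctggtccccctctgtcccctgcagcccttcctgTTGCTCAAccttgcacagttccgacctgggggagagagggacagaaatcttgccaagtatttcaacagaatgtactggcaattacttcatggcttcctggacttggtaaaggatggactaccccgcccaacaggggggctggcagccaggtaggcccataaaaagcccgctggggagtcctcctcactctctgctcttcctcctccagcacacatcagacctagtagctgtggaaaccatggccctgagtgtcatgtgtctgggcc

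The Saa3 match starts at base 152 and the Lcn2 match at base 35 of its window, and no letters of the other motifs were found in either. Among all 32851 RefSeq promoters of that length, 10.8% hold the C/EBP motif, 8.3% the STAT motif and 8.46% the NF-kB consensus. Of the 14 acute-phase genes tested, 11 had a RefSeq promoter. The C/EBP motif was in 6 of these, the NF-kB consensus in 4 and the STAT motif in 3. A gene was counted if any of its promoters held the motif, whereas the percentages are of single promoters, so the measures differ. A match is a run of letters and no measure of binding.

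The list of acute-phase genes holds 19 names, of which 14 passed the filter on low values. Of the other 5, Saa2 was under the filter and 4 were not analysed here. All 14 genes tested were higher with DSS, beside 6.03% of all genes tested, and their median log2 fold change was 3.06. Of these, 13 were called in each fit without 1 library. The exception was Il1rn, the interleukin-1 receptor antagonist, with an adjusted p of 0.00985 over all 6 libraries and of up to 0.0534 without DSS library 2 or 3. Serpina3n, a secreted serine protease inhibitor, had 3669, 5631 and 4551 with DSS, against 259, 654 and 844 in normal cells (log2 fold change 3.12 ± 0.40, adjusted p = 0.000658). Ptx3, a long pentraxin that opsonises microbes, had 1206, 1720 and 1332, against 149, 167 and 130 (3.24 ± 0.24, adjusted p = 1.45e-05). In both genes the lowest DSS library lay more than 4-fold above the highest normal library. Serpina3m, a relative of Serpina3n, was near 0 in normal cells: 837, 1392 and 918 with DSS, against 9, 11 and 4 (6.92 ± 0.35, adjusted p = 6.90e-07). The Serpina3 genes are near-identical copies of each other, so reads can be split among them and the values of single members are uncertain. Cp, ceruloplasmin, and Lbp, which presents bacterial lipopolysaccharide, had the smallest changes of those named here, with log2 fold changes of 1.87 and 2.06.

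**Figure D2:**
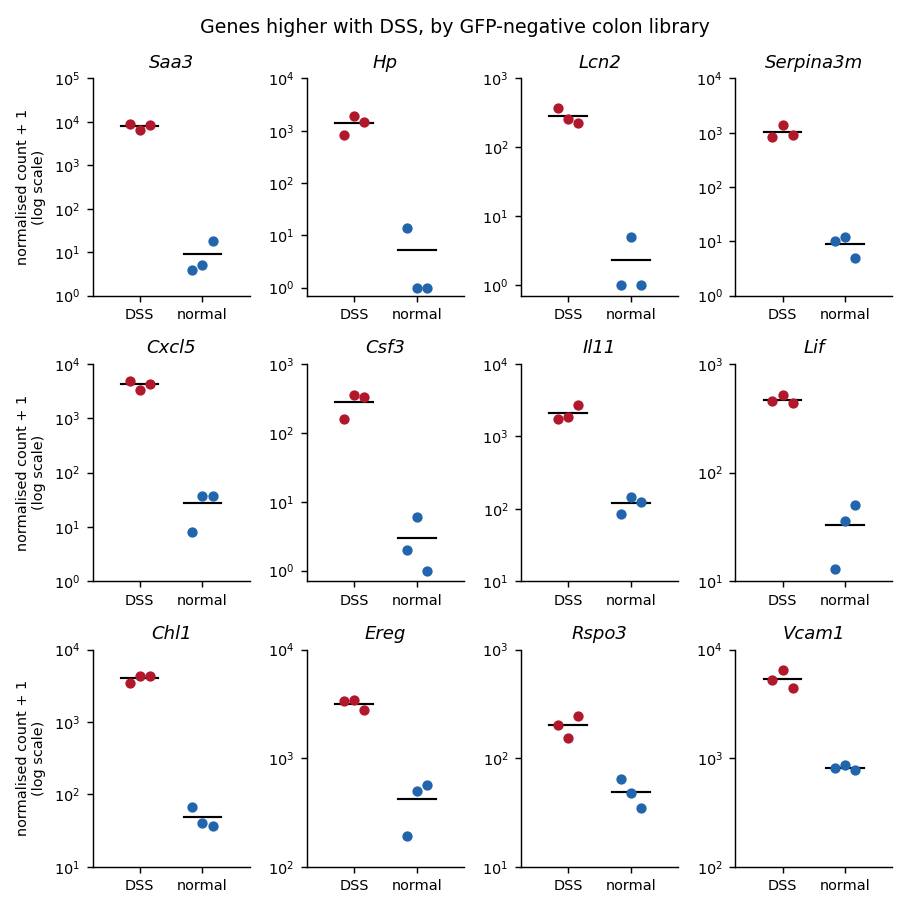
Normalised counts plus 1 on a log scale for 12 genes, with the 3 DSS libraries on the left (red) and the 3 normal libraries on the right (blue) of each panel; points are libraries and bars are group means. No group overlaps the other, and the gap is widest for Saa3, at 6453 or more with DSS and 17 or less in normal cells.

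Chemokines that act on neutrophils, monocytes and lymphocytes rose together. Of 15 CXC and CX3C names, 12 were tested and 10 were higher with DSS, with 0 lower and a median log2 fold change of 2.84. Cxcl5, a ligand of the neutrophil receptor CXCR2, had 4954, 3379 and 4351 with DSS, against 7, 36 and 36 in normal cells (7.56 ± 0.51, adjusted p = 1.84e-05). Cxcl2, another CXCR2 ligand, had 1715, 1543 and 1151, against 57, 212 and 204 (3.41 ± 0.44, adjusted p = 0.000784). In both, every DSS library lay far above every normal library. The related Cxcl1 had 11014, 16850 and 10646, against 738, 4349 and 6946. Its groups did not overlap but the spread within the normal group was wide, and the log2 fold change of 2.16 ± 0.70 missed the threshold (adjusted p = 0.0836).

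Among ligands of the T-cell receptor CXCR3, Cxcl9 had 1716, 763 and 950 with DSS, against 28, 70 and 68 in normal cells (4.37 ± 0.38, adjusted p = 5.00e-05). Cxcl13, which attracts B cells, had 1497, 1801 and 1161, against 73, 99 and 142 (3.84 ± 0.29, adjusted p = 1.45e-05). Both were far apart between groups in every library. Cxcl12, the homeostatic ligand of CXCR4, had 4878, 7719 and 7547, against 3862, 5678 and 4402, and its groups overlapped (0.52 ± 0.30, adjusted p = 0.286). Cxcl10, also a CXCR3 ligand, had 3619, 2197 and 1996, against 216, 971 and 666 (2.27 ± 0.48, adjusted p = 0.0126), a call lost without DSS library 1 or 2 with an adjusted p of up to 0.0564. Of the 10 calls, 6 were kept in each fit without 1 library.

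Of 17 CC chemokine names, 11 were tested and 5 were higher, 0 lower, with a median of 1.64. Ccl2, which draws CCR2+ monocytes, had 11410, 10808 and 5934 with DSS, against 591, 1325 and 986 in normal cells (3.29 ± 0.36, adjusted p = 0.000236). Ccl7, a close relative, had 2299, 1816 and 1178, against 92, 226 and 232 (3.32 ± 0.37, adjusted p = 0.000294). Ccl11, an attractant of eosinophils, had 2581, 1581 and 1777, against 608, 689 and 715 (1.53 ± 0.27, adjusted p = 0.00436). None of the 3 overlapped between groups, and all 5 calls, with Ccl8 and Ccl19, were kept in each fit without 1 library.

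Cytokines were fewer but included some of the largest changes. Of 24 names, 18 were tested, 6 were higher, 1 was lower and the median log2 fold change was 0.71. Csf3, which encodes the granulocyte growth factor G-CSF, had 160, 350 and 334 with DSS, against 1, 5 and 0 in normal cells (6.86 ± 0.58, adjusted p = 3.49e-05). Il11, an interleukin-6 family cytokine made by stromal cells, had 1762, 1830 and 2736, against 85, 147 and 124 (4.15 ± 0.28, adjusted p = 1.01e-05). Lif, another member of that family, had 454, 519 and 434, against 12, 35 and 49 (4.03 ± 0.41, adjusted p = 0.00015). In these 3 genes no library of either group came near the other group. Il6 itself had 2864, 2142 and 1978, against 250, 743 and 919 (2.05 ± 0.42, adjusted p = 0.0106), and its adjusted p was 0.0549 without DSS library 2. Il33, an alarmin that acts through ST2, had 399, 472 and 697, against 134, 205 and 224 (1.47 ± 0.29, adjusted p = 0.00893), with an adjusted p of 0.0570 without DSS library 3. The 1 decrease was Il15, a growth factor of natural killer and memory T cells, at 21, 15 and 18, against 91, 79 and 65 (-2.06 ± 0.30, adjusted p = 0.00152).

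Receptors and signal carriers changed less. Of 27 cytokine receptor and signalling genes tested, 6 were higher and 1 was lower, with a median of 0.66. Il1r1, the interleukin-1 receptor, had 235, 185 and 161 with DSS, against 36, 60 and 54 in normal cells (1.95 ± 0.28, adjusted p = 0.00141), and Il17ra, a subunit of the interleukin-17 receptor, had a log2 fold change of 1.81. Both genes were called in each fit without 1 library. Socs3, a feedback inhibitor of interleukin-6 family signalling, was lower, at 889, 619 and 636 with DSS, against 1552, 2605 and 2999 in normal cells (-1.70 ± 0.30, adjusted p = 0.0051). Il6st, the shared gp130 receptor chain, and Il11ra1 did not pass, with log2 fold changes of 0.27 and 0.49.

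Feedback genes of NF-kB rose while most subunits did not pass. Of 18 NF-kB pathway genes tested, 7 were higher and 0 lower, with a median of 1.09. Tnfaip3, which encodes the deubiquitinase A20, had 871, 968 and 580 with DSS, against 49, 147 and 146 in normal cells (2.94 ± 0.39, adjusted p = 0.000879). Nfkbia, the inhibitor IkBa, had 29367, 44494 and 22872, against 5869, 10180 and 9130 (1.93 ± 0.35, adjusted p = 0.00544). Both genes were at least 2-fold apart between the closest libraries of the groups. The subunits Rela, Nfkb1 and Relb had log2 fold changes of 0.99, 0.90 and -0.00 and did not pass. Nfkbiz, an atypical IkB protein needed for a subset of targets, had 1750, 2191 and 2769, against 146, 922 and 859, and narrowly missed the threshold (2.17 ± 0.62, adjusted p = 0.0552).

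Interferon-stimulated genes gave the largest count of increases, in the list with the most genes tested. Over all genes tested, 6.03% were higher and 4.27% lower. Of 42 names, 40 were tested, 21 were higher, 1 was lower and the median log2 fold change was 1.17. The largest changes were in GTPases of cell-autonomous defence, which interferon-gamma induces. Gbp5 had 1034, 1304 and 1262 with DSS, against 4, 29 and 33 in normal cells (6.12 ± 0.64, adjusted p = 0.000707). Iigp1 had 4889, 4183 and 3955, against 160, 589 and 787 (3.36 ± 0.48, adjusted p = 0.00155). In both, normal library 1 was the lowest of all. Isg15, a ubiquitin-like protein induced by type I interferons, had 699, 816 and 784, against 67, 135 and 117 (2.89 ± 0.28, adjusted p = 1.00e-04). Some others that type I interferons induce, among them Irf7, Ifit2 and Mx2, did not pass, with log2 fold changes of 0.62, -0.45 and -0.44. Ifi44, another interferon-stimulated gene, was called higher (adjusted p = 0.00198), also in each fit without 1 library. The count was 21 higher and 1 lower without normal library 1 as well, and 13 of the increases were kept in each fit without 1 library. The 1 decrease, Ifi35, had a log2 fold change of -1.35 (adjusted p = 0.00691, and 0.0585 without DSS library 2).

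MHC class I genes followed. Of 19 antigen presentation genes tested, 11 were higher and 0 lower, with a median of 1.18. Tap1, which pumps peptides into the endoplasmic reticulum, had 1595, 1388 and 1029 with DSS, against 252, 219 and 167 in normal cells (2.64 ± 0.27, adjusted p = 0.000135). H2-K1, a classical class I heavy chain, had 14272, 10097 and 7740, against 3397, 2015 and 2061 (2.10 ± 0.33, adjusted p = 0.00215). The groups were apart in both. H2 genes are near-identical copies, so single values such as those of H2-Q7 (log2 fold change 2.84) are uncertain. B2m, the light chain, had a log2 fold change of 0.85 and did not pass. Without 1 library, 5 of the 11 calls were kept in each of the 6 fits.

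Among complement genes, factor B of the alternative pathway and C2 of the classical pathway rose most. Of 16 complement genes tested, 6 were higher and 1 was lower, with a median of 0.69. Cfb, factor B, had 8439, 12588 and 12886 with DSS, against 618, 919 and 919 in normal cells (3.78 ± 0.29, adjusted p = 1.73e-05). C3, the central component, had 13421, 17917 and 14008, against 4071, 4911 and 2912 (1.95 ± 0.30, adjusted p = 0.00204). Neither overlapped between groups. Cfb and C2 lie beside each other on chromosome 17 and a gene model on the same strand, Gm20547, overlaps both, so their reads could be shared. Cd55, which protects cells from complement, was lower at 496, 326 and 343, against 1389, 793 and 744 (-1.29 ± 0.30, adjusted p = 0.0188), but its adjusted p was above 0.05 without DSS library 2 or 3, at up to 0.116.

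Of 14 leukocyte-contact genes tested, 5 were higher and 0 lower, with a median of 0.32. Vcam1, which binds the integrin VLA-4 on leukocytes, had 5290, 6485 and 4412 with DSS, against 804, 861 and 775 in normal cells (2.71 ± 0.26, adjusted p = 9.30e-05). Cd274, the inhibitory ligand PD-L1, had 120, 125 and 165, against 16, 25 and 56 (2.22 ± 0.40, adjusted p = 0.00518). These were the 2 calls kept in each fit without 1 library. Icam1 had a log2 fold change of 0.45 and did not pass.

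**Figure D3:**
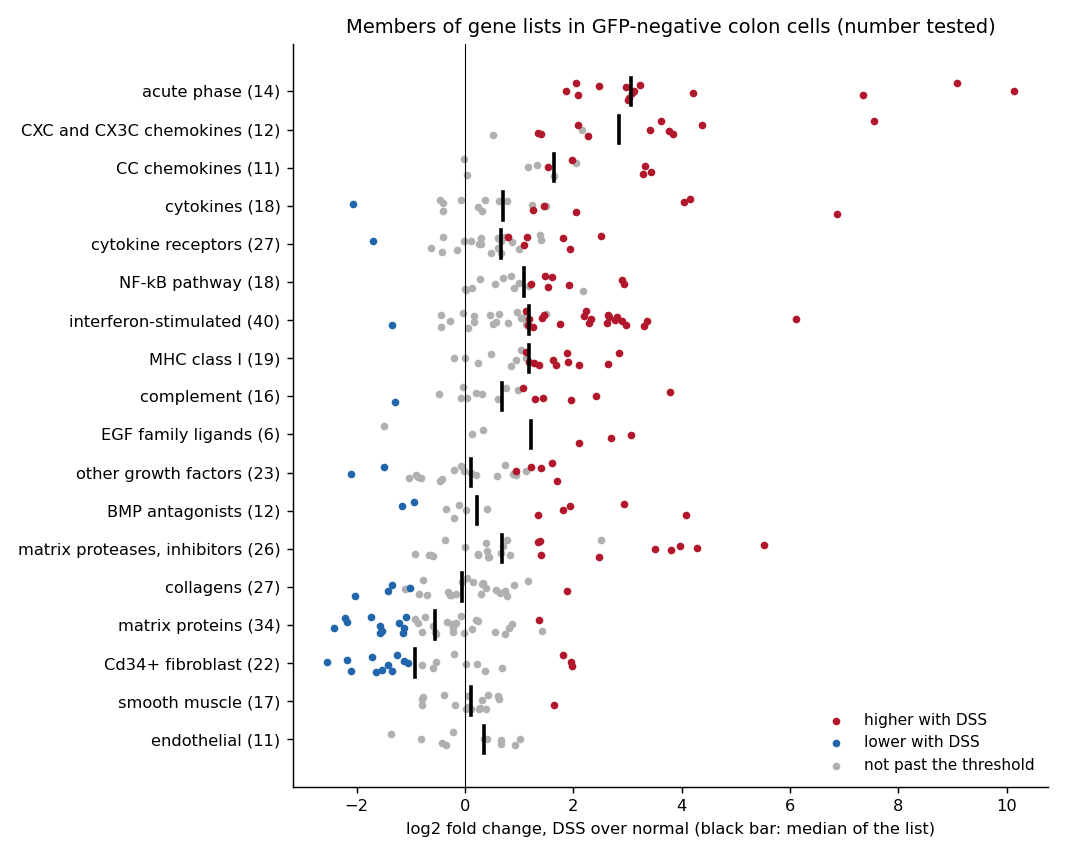
Log2 fold change of DSS over normal GFP-negative cells (x axis) for every tested member of 18 gene lists (rows, number tested in parentheses); red and blue points passed an adjusted p of 0.05 and grey points did not, and black bars are medians. Medians run from 3.06 for acute-phase genes to -0.92 for Cd34+ fibroblast genes.

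Signals that fibroblasts send to the epithelium did not move as 1 group. Ereg encodes epiregulin, an EGF receptor ligand that promotes epithelial growth. It had 3380, 3419 and 2752 with DSS, against 191, 493 and 563 in normal cells (3.07 ± 0.37, adjusted p = 0.00045). Nrg1, neuregulin 1, a ligand of ERBB3 and ERBB4, had 141, 154 and 177, against 8, 48 and 32 (2.69 ± 0.50, adjusted p = 0.00769). The groups were apart in both, and the DSS libraries were close to each other. Of 6 EGF family ligands tested, 3 were higher and 0 lower, among them Btc (2.10 ± 0.44, adjusted p = 0.0111). The counts were 3 higher and 1 lower with each library scaled to the same total, and also without normal library 1. The call for Btc was lost without DSS library 2 or 3, with an adjusted p of up to 0.0858. Areg, amphiregulin, at 49, 41 and 46, against 13, 41 and 129, had a log2 fold change of 0.12.

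Of 10 Wnt ligands and R-spondins tested, 2 were higher and 2 were lower, or 1 and 4 with each library scaled to the same total. R-spondins strengthen Wnt signalling in stem cells by sparing Frizzled receptors from breakdown. Rspo3 had 200, 153 and 246 with DSS, against 64, 47 and 34 in normal cells (2.04 ± 0.30, adjusted p = 0.00155). The lowest DSS library was over 2-fold above the highest normal library. Rspo1 had 34, 72 and 38, against 11, 19 and 23 (1.37 ± 0.40, adjusted p = 0.0491), a call kept in 1 of the 6 fits without 1 library, with an adjusted p of up to 0.24. The ligand Wnt2 was lower, at 18, 27 and 25, against 66, 69 and 76 (-1.57 ± 0.29, adjusted p = 0.00686). Wnt2b had a log2 fold change of -0.90 and Wnt5a one of 0.27, and neither passed.

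Secreted Wnt inhibitors gave 2 increases. Sfrp1 had 8886, 7666 and 8080 with DSS, against 1818, 2400 and 2044 in normal cells (1.98 ± 0.26, adjusted p = 0.000814). Frzb had 563, 869 and 933, against 149, 312 and 246 (1.77 ± 0.31, adjusted p = 0.00494). These were the 2 calls among 7 inhibitors tested, both higher and both kept in each fit without 1 library.

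BMP antagonists, which keep BMP signals away from the crypt base, changed in both directions. Of 12 tested, 5 were higher and 2 were lower. Grem1, gremlin 1, had 3421, 3170 and 3899 with DSS, against 936, 1057 and 1009 in normal cells (1.80 ± 0.25, adjusted p = 0.00103). Chrdl2, chordin-like 2, had 148, 90 and 97, against 8, 5 and 4 (4.09 ± 0.37, adjusted p = 5.60e-05). The replicates of Grem1 were tight in both groups. Chrd, chordin, was lower at 54, 57 and 44, against 106, 115 and 131 (-1.17 ± 0.25, adjusted p = 0.0138), but was not called without DSS library 2 or 3 or normal library 2, with an adjusted p of up to 0.0790. Among BMP and TGF-beta ligands, 15 were tested, 1 was higher and 2 were lower, beside 6.03% and 4.27% of all genes tested. Inhba, the activin A subunit, had 64, 95 and 43, against 15, 10 and 6 (2.60 ± 0.42, adjusted p = 0.00258). Bmp4 had 1560, 572 and 526, against 2514, 1458 and 1235, and its groups overlapped (-1.09 ± 0.41, adjusted p = 0.114).

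Other growth factors gave 5 increases and 2 decreases among 23 tested. Fgf7, keratinocyte growth factor, which acts on epithelium, had 163, 158 and 140 with DSS, against 56, 57 and 39 in normal cells (1.60 ± 0.26, adjusted p = 0.00284). Igfbp5, an insulin-like growth factor binding protein, had 7404, 4492 and 3643, against 1826, 1414 and 1367 (1.70 ± 0.31, adjusted p = 0.00613). Both kept their call in each fit without 1 library. Its relative Igfbp6 went the other way, at 230, 148 and 132, against 1173, 587 and 519 (-2.10 ± 0.33, adjusted p = 0.0025). Hgf, hepatocyte growth factor, and Igf1 had log2 fold changes of 0.94 and 1.22. Both were called with all 6 libraries (adjusted p = 0.0382 and 0.0188), but Hgf in only 1 and Igf1 in only 2 of the fits without 1 library, where the adjusted p reached 0.135 and 0.0978.

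Genes listed for Cd34+ fibroblasts fell more often than they rose. Cd34+ fibroblasts are a submucosal and adventitial population of the gut. Of 22 genes listed for them and tested, 11 were lower and 3 were higher, with a median of -0.92. Gsn, gelsolin, an actin-severing protein, had 8580, 9793 and 8092 with DSS, against 38946, 36640 and 44775 in normal cells (-2.18 ± 0.28, adjusted p = 0.000722). Clec3b, tetranectin, had 2206, 2521 and 2496, against 9467, 7098 and 7430 (-1.72 ± 0.27, adjusted p = 0.00209). Serpinf1, the anti-angiogenic factor PEDF, had 142, 128 and 150, against 489, 506 and 346 (-1.65 ± 0.24, adjusted p = 0.00155). In each of these genes every DSS library lay below every normal library. Cd34 itself had 1526, 1531 and 1480, against 4946, 3854 and 2477 (-1.26 ± 0.30, adjusted p = 0.0208), and was called in 2 of the 6 fits without 1 library. The 3 increases, Sfrp1, Grem1 and C3, are secreted proteins that stand in other lists here as well. Of the 11 decreases, 4 were kept in each fit without 1 library, against 3 of the 3 increases.

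Genes listed for telocytes, the subepithelial PDGFRA-high cells, did not fall in the same way: of 17 tested, 4 were higher, 1 was lower and the median was 0.09, or -0.03 with each library scaled to the same total. Pdgfra had 1070, 1425 and 1425 with DSS, against 942, 1054 and 1068 in normal cells, and did not pass (0.34 ± 0.25, adjusted p = 0.395). Procr, the endothelial protein C receptor CD201, had 609, 934 and 836, against 122, 269 and 257 (1.93 ± 0.32, adjusted p = 0.00344). F3, tissue factor, had 251, 283 and 176, against 81, 85 and 65 (1.59 ± 0.26, adjusted p = 0.00316). The 4 increases in this list were all kept in each fit without 1 library. Foxl1, a transcription factor of telocytes, did not pass.

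**Figure D4:**
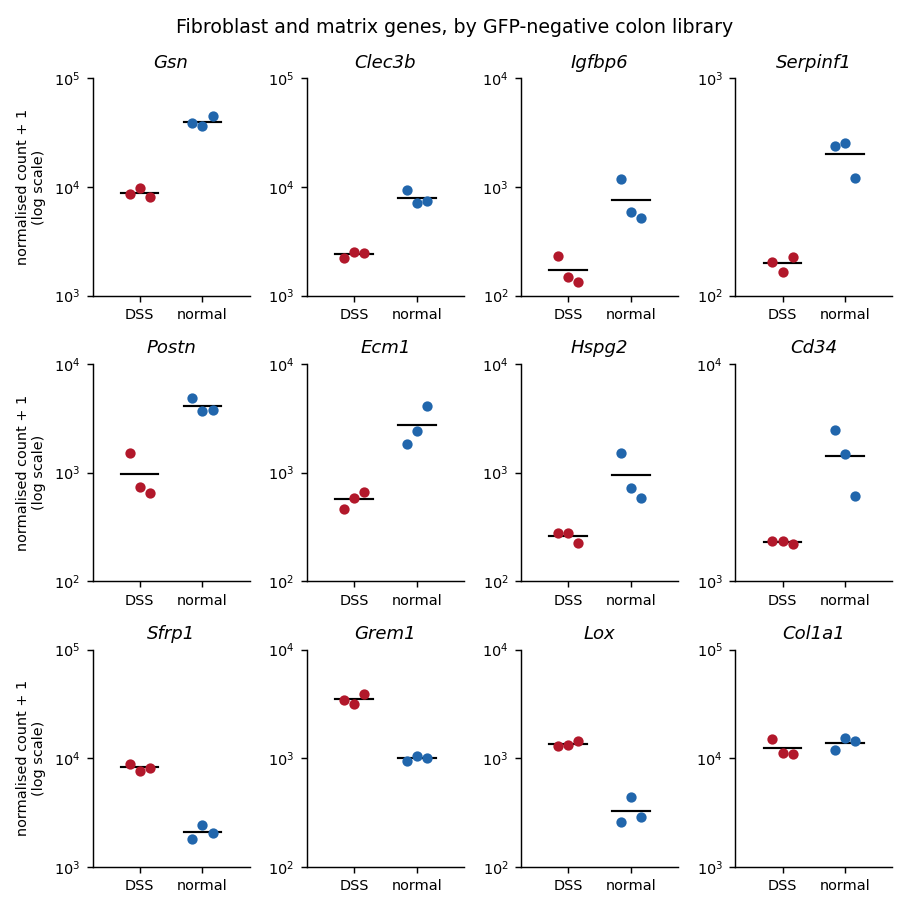
Normalised counts plus 1 on a log scale for 12 fibroblast and matrix genes, with the 3 DSS libraries on the left (red) and the 3 normal libraries on the right (blue) of each panel; points are libraries and bars are group means. The first 8 genes are lower with DSS, Sfrp1, Grem1 and Lox are higher, and the Col1a1 values of the groups overlap.

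Matrix proteins other than collagens were lower in 11 of the 34 tested and higher in 1, with a median of -0.55. Postn, periostin, had 1529, 731 and 646 with DSS, against 4884, 3675 and 3736 in normal cells (-2.18 ± 0.34, adjusted p = 0.00211). Ecm1, extracellular matrix protein 1, had 464, 589 and 659, against 1833, 2413 and 4062 (-2.21 ± 0.32, adjusted p = 0.00134). Fn1, fibronectin, had 2766, 2272 and 2412, against 5434, 5021 and 7082 (-1.22 ± 0.27, adjusted p = 0.0149). Every DSS library was below every normal library in each. Eln, elastin, and Fbln5, which organises elastic fibres, had log2 fold changes of -1.10 and -1.57. Of these decreases, 4 were kept in each fit without 1 library, among them Postn, Ecm1 and Aspn (asporin, -2.41). Fn1, Eln and Fbln5 lost their call without DSS library 2 or 3, and Eln and Fbln5 also without normal library 2, with adjusted p-values of up to 0.0983, 0.185 and 0.0963.

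Collagens changed little by comparison. Of 27 tested, 1 was higher and 4 were lower, beside 6.03% and 4.27% of all genes tested, and the median was -0.06. Col18a1, whose C-terminal piece is endostatin, had 2077, 2738 and 1754 with DSS, against 651, 622 and 484 in normal cells (1.89 ± 0.27, adjusted p = 0.00125). Col14a1 had 3020, 2100 and 2294, against 6902, 5925 and 5775 (-1.34 ± 0.27, adjusted p = 0.00988). Col3a1, a major fibrillar chain, overlapped between groups at 33847, 26269 and 25847, against 13033, 32429 and 24457 (0.38 ± 0.37, adjusted p = 0.529). The counts became 2 higher and 7 lower without normal library 1, and 1 higher and 6 lower with each library scaled to the same total. None of the 4 decreases was kept in each of the 6 fits, and Col14a1 had an adjusted p of up to 0.0790 without DSS library 2 or 3. Hspg2, the basement membrane proteoglycan perlecan, was lower at 277, 279 and 222, against 1523, 724 and 578 (-1.73 ± 0.33, adjusted p = 0.0081).

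Of 26 matrix proteases and inhibitors tested, 9 were higher and 0 lower (9 and 1 with each library scaled to the same total), with a median of 0.68. Mmp3, stromelysin 1, had 2344, 1708 and 2499 with DSS, against 145, 93 and 100 in normal cells (4.27 ± 0.27, adjusted p = 4.93e-06). Mmp13, collagenase 3, had 115, 143 and 206, against 5, 5 and 0 (5.52 ± 0.62, adjusted p = 0.000284). Timp1, an inhibitor of these enzymes, had 585, 275 and 373, against 52, 94 and 69 (2.47 ± 0.32, adjusted p = 0.000687). None of them overlapped between groups, and 6 of the 9 calls were kept in each fit without 1 library. The gelatinase Mmp2 had a log2 fold change of 0.24 and did not pass. Of 17 collagen processing and cross-linking genes tested, 1 was higher and 2 were lower, beside 6.03% and 4.27% of all genes tested. Their median was -0.22. Lox, lysyl oxidase, which cross-links collagen and elastin, had 1291, 1317 and 1438, against 255, 440 and 289 (2.08 ± 0.26, adjusted p = 0.000654). Its relative Loxl1 was lower at 936, 727 and 617, against 1818, 1781 and 1747 (-1.25 ± 0.25, adjusted p = 0.0102), a call lost without DSS library 2 or 3 with an adjusted p of up to 0.0758.

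Vessel, prostaglandin and hypoxia genes gave single large changes. Adm, adrenomedullin, a vasodilator peptide induced by hypoxia, had 1976, 6356 and 2238 with DSS, against 161, 156 and 408 in normal cells (3.80 ± 0.47, adjusted p = 0.000746). Hif1a, a hypoxia-inducible factor, had 581, 785 and 764, against 96, 181 and 151 (2.34 ± 0.28, adjusted p = 0.000423). Both were kept in each fit without 1 library. Of 25 glycolysis and hypoxia genes, 4 were higher and 0 lower, while Vegfa and Slc2a1 had log2 fold changes of 0.63 and -0.22 and did not pass. Of 16 prostaglandin genes tested, 2 were higher and 2 lower, beside 6.03% and 4.27% of all genes tested. Tbxas1, thromboxane synthase, had 2, 6 and 8 with DSS, against 89, 38 and 61 in normal cells (-3.39 ± 0.49, adjusted p = 0.00153). This was the largest called decrease among genes with no overlap and a mean of at least 50 in normal cells. Predicted genes and immunoglobulin segments were left out of that ranking. Ptgs2, the inducible cyclooxygenase, had a log2 fold change of 0.89 and did not pass.

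Some of the largest changes lay outside these lists. Chl1, a neural cell adhesion molecule of the L1 family on chromosome 6 at 103510586 to 103750211, had 3483, 4315 and 4356 with DSS, against 67, 39 and 36 in normal cells. The groups were far apart, with a log2 fold change of 6.44 ± 0.28 (adjusted p = 3.49e-07), the smallest adjusted p of the genes named. Ubd, the ubiquitin-like modifier FAT10, had 374, 203 and 159, against 1, 0 and 2. Only a few reads stood behind the normal values, and the ratio of reads was 266, with a 95% counting interval of 90.5 to 1290. Olfr94, an olfactory receptor gene, had 134, 90 and 86, against 0, 0 and 2, a ratio of reads of 168 (interval 46.1 to 1400). It lies next to Ubd on chromosome 17 on the opposite strand, with the 3' ends facing each other, and whether its reads come from Ubd transcripts was not tested.

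The largest decreases of single genes were smaller than the largest increases. Crip1, a LIM-domain protein, had 202, 153 and 138 with DSS, against 2144, 1181 and 902 in normal cells (-3.01 ± 0.32, adjusted p = 0.00019). Ndufb11, a subunit of respiratory complex I, had 22, 14 and 10, against 133, 124 and 183 (-3.22 ± 0.33, adjusted p = 0.000164). Both were far apart between groups. Hapln1, which links hyaluronan to proteoglycans, Pou3f1, Svopl and Islr2 were also among the largest decreases, together with Aard and AY036118, with log2 fold changes between -2.53 and -3.12. Aard was called in 2 of the 6 fits without 1 library. AY036118 overlaps a gene model on the opposite strand, Gm42418, and whether its reads come from there was not tested.

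Markers of other cell types were present, and some moved with DSS. Of 20 myeloid genes tested, 3 were higher and 0 lower, beside 6.03% and 4.27% of all genes tested. S100a8, a subunit of the neutrophil protein calprotectin, had 100, 142 and 139 with DSS, against 0, 4 and 1 in normal cells (5.88 ± 0.55, adjusted p = 7.44e-05). S100a9, its partner, had 174, 142 and 134, against 1, 5 and 1 (5.70 ± 0.46, adjusted p = 2.30e-05). Of the 20, 19 had a positive log2 fold change, and the median was 0.91. The summed level of the myeloid list was 855, 978 and 1391 in the DSS libraries, against 349, 376 and 1116 in the normal libraries, so that the sums overlap. Of 17 epithelial genes tested, 2 were higher, beside 6.03% of all genes tested. Of the same 17, 16 had a positive log2 fold change and the median was 1.31. Reg3b, an antibacterial lectin of the epithelium, had 176, 47 and 331 with DSS and 0 in every normal library, at least 66.8-fold higher at a floor of 3 reads per library. The epithelial sum was 644, 478 and 1498, against 129, 271 and 603. Among lymphoid genes, 7 were tested and Igha, the IgA heavy chain of plasma cells, was lower at 1276, 639 and 2274, against 3466, 4977 and 20629 (-2.53 ± 0.66, adjusted p = 0.0417). That call was lost without DSS library 1 or 2 or normal library 2, with an adjusted p of up to 0.141. The lymphoid list had a median of -1.74 and a summed level of 3629, 2116 and 4770, against 5378, 8541 and 33346. The 11 endothelial genes tested had a median of 0.35.

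Levels in sorted GFP-negative cells were set beside those in the unsorted DSS colon preparation, in the authors' table that holds both. Over the 785 genes higher with DSS, the ratio of sorted to unsorted means ran from 0.0158 to 9.12, with a median of 1.28. It was under 0.1 for 14 genes, under 0.5 for a further 67 and at least 1 for 513. S100a8 averaged 108 in sorted GFP-negative cells and 3973 in unsorted cells, a ratio of 0.027, and Reg3b had a ratio of 0.051. Lyz2, Ptprc and Epcam, which mark myeloid cells, leukocytes and epithelium, had ratios of 0.014, 0.013 and 0.066. Il1rn, at 0.027, was as low as S100a8, and Igha had 0.057, Cd274 0.129, Birc5 0.139, Inhba 0.224, Ccl8 0.240, Lcn2 0.357 and Mmp13 0.418. Isg15 had 0.552, Cxcl2 and Ubd 0.580, Nrg1 0.644 and Cxcl9 0.675. Saa3 had a ratio of 0.924, Hp 1.69, Cxcl5 2.00, Il11 2.29, Csf3 2.91, Ereg 3.01 and Chl1 3.85, beside 3.76 for Dcn. Genes reported here as higher therefore lie on both sides of 1. These are levels from a second table with its own scaling, given with no test, and the part of other cells in any result was not tested.

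Of 28 genes that enzymatic dissociation induces, 5 were higher and 2 were lower with DSS, beside 6.03% and 4.27% of all genes tested. Their median was 0.44. Jun, a subunit of AP-1, had 40392, 56063 and 44092, against 16936, 26331 and 20875 in normal cells (1.14 ± 0.31, adjusted p = 0.0403), a call kept in 1 of the 6 fits without 1 library. Klf2, a shear-responsive factor, had 1337, 814 and 513, against 3594, 4262 and 2811 (-2.09 ± 0.35, adjusted p = 0.00334). Klf2 was the 1 call of this list kept in each fit without 1 library. The summed level of the list was 260753, 327094 and 247824, against 128215, 219523 and 220943. Normal library 1 had the lowest sum, with Hspa1b at 2207 where the other normal libraries had 11587 and 10062. The part of dissociation in the results was not tested. Of 31 cell cycle genes, 4 were higher and 1 lower, beside 6.03% and 4.27% of all genes tested. With each library scaled to the same total, 3 were higher and 3 lower. Birc5, survivin, had 60, 62 and 52, against 13, 12 and 19 (1.94 ± 0.32, adjusted p = 0.00344), while Pcna had a log2 fold change of -1.28 (adjusted p = 0.0158, and up to 0.102 without 1 library). Smooth muscle genes gave 1 call in 17, a share near the 6.03% of all genes tested, Mylk at 1.65 (adjusted p = 0.00789, and 0.0593 without DSS library 2), and Acta2, at 838, 500 and 478, against 383, 848 and 587, overlapped (0.02 ± 0.33, adjusted p = 0.971).

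The response was set beside that of the GFP-positive cells, in which Cre had recombined the reporter, with 3 DSS and 3 normal libraries of their own. The difference of the 2 responses was tested as an interaction over the 12 sorted libraries. It passed for 7 of 13488 genes (0.0519%). Gdpd2, a glycerophosphodiester phosphodiesterase, had 47, 95 and 46 in DSS GFP-negative cells, against 2, 0 and 0 in normal GFP-negative cells (5.38 ± 0.62), a ratio of reads of 101 (interval 27.6 to 844). In GFP-positive cells it had 30, 33 and 54 with DSS, against 22, 21 and 31. The difference of the log2 fold changes, GFP-negative minus GFP-positive, was 4.77 ± 0.66 (adjusted p = 0.00694). Alpl, the tissue-nonspecific alkaline phosphatase, had 772, 1435 and 1397, against 67, 80 and 47 in GFP-negative cells, and 294, 270 and 316, against 81, 80 and 75 in GFP-positive cells. It rose in both populations, with log2 fold changes of 4.17 and 1.88.

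For 3 genes the response of GFP-negative cells was up where that of GFP-positive cells was near 0 or down. Sfrp1, described above, had 740, 786 and 826 in DSS GFP-positive cells, against 699, 621 and 1098 in normal GFP-positive cells, and the difference was 1.98 ± 0.34 (adjusted p = 0.0422). Alcam, an adhesion molecule that binds CD6 on T cells, had 69, 56 and 58, against 21, 27 and 25 in GFP-negative cells, and 88, 92 and 113, against 167, 158 and 196 in GFP-positive cells. The log2 fold changes were 1.29 and -0.83, both past the threshold over all libraries, although the first was lost without DSS GFP-negative library 2 or 3 (adjusted p of up to 0.0724), and the difference was 2.12 ± 0.32 (adjusted p = 0.0148). Fgf7 had 19, 42 and 30 in DSS GFP-positive cells, against 61, 38 and 68 in normal ones, a difference of 2.48 ± 0.43 (adjusted p = 0.0462).

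Timp3, an inhibitor of metalloproteinases, went the other way. It had 3852, 2711 and 2650, against 2655, 2260 and 1988 in GFP-negative cells (0.40 ± 0.27), but 7129, 6682 and 7498, against 1131, 1034 and 1114 in GFP-positive cells, and the difference was -2.29 ± 0.32 (adjusted p = 0.00694). Syn3, on whose opposite strand Timp3 lies, had a difference of -2.95 (adjusted p = 0.00274), and whether its reads come from Timp3 was not tested. The count of 7 ranged from 2 without DSS GFP-negative library 3 to 15 without normal GFP-negative library 1. It was 3 or 4 without any 1 DSS GFP-positive library, without normal GFP-positive library 3, or without DSS GFP-negative library 1 or 2. Gdpd2 and Syn3 were called in each of the 12 fits without 1 library, Timp3 in 11, Alcam in 7, Alpl in 4 and Sfrp1 and Fgf7 in 3 each. The differences of Alpl, Sfrp1 and Fgf7 were also not called by limma without its trended and robust variance, with adjusted p-values of 0.0721, 0.0721 and 0.0844.

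The leading genes of the GFP-negative response gave no called difference. Saa3 had a log2 fold change of 10.13 in GFP-negative and 8.52 in GFP-positive cells, a difference of 1.62 ± 0.58 (adjusted p = 0.494). Chl1 had 6.44 and 6.40 (difference 0.04 ± 0.39, adjusted p = 0.986), and Cxcl5 had 7.56 and 7.16 (difference 0.40 ± 0.80, adjusted p = 0.932). Ereg and Rspo3 had differences of 1.72 ± 0.66 and 1.35 ± 0.54 (adjusted p = 0.534 and 0.544). Such a p does not show that the populations responded alike.

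**Figure D5:**
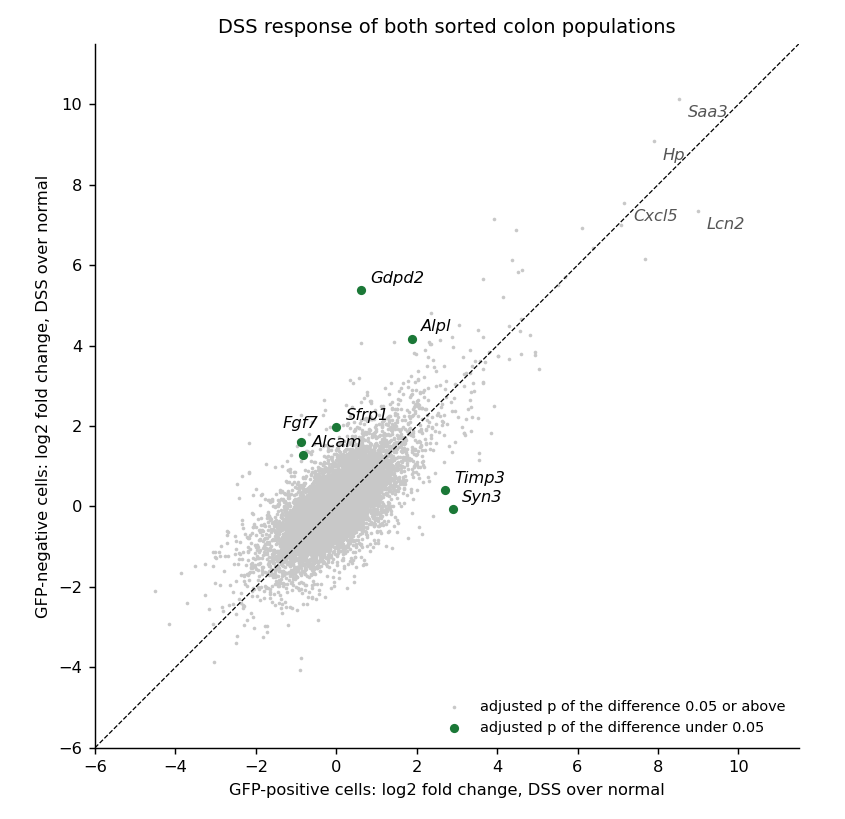
Log2 fold change of DSS over normal in GFP-negative cells (y axis) and in GFP-positive cells (x axis), 1 point per gene tested in both; the dashed line marks equal changes. The 7 green genes passed the test of the difference, with Gdpd2, Alpl, Sfrp1, Alcam and Fgf7 above the line and Timp3 and Syn3 below it, while Saa3 (10.13 against 8.52) did not pass.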

How the data were processed

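The 6 GFP-negative colon libraries are measured as one score per gene, a read count that the authors normalised and rounded to whole numbers before they deposited it, per the file headers and the values. For the counting program, annotation and gene filter, the sources used here name none, and TopHat2, Bowtie2, DESeq and mm10 are named without versions or settings in the submitters' processing notes. The deposited table of the authors also holds a log2 fold change, a p-value and an FDR from DESeq, which were used only as an alternative. The deposited values are not raw counts, so a test on log2 values took the place of a count test. Reads per library were estimated from the spacing of low values and set the floor of 3 reads and the counting intervals (95%, exact), which cover counting error only.

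Genes that averaged 10 or more in either group were tested with limma 3.58.1 (R 4.3.3) on log2(value + 1), with a trended and robust variance, Benjamini-Hochberg adjustment over all genes tested and a threshold of 0.05. Fold changes are on that scale, which understates those of low genes, and ± gives their standard error. The same model over 12 libraries, with the 3 DSS and 3 normal GFP-positive ones, tested the difference of the responses. The tables of both populations shared a scale: ratios to tables holding both were 1.17 to 1.18 in the DSS libraries and 0.836 to 0.844 in the normal libraries of either population. The procedure was tested on simulated data. A symbol with several gene IDs is given by the ID with the highest total. Sequences are from RefSeq. The labels state no pairing by replicate number. Deviations of same-numbered DSS and normal GFP-negative libraries correlated at 0.122, 0.015 and 0.168. Whether same-numbered GFP-negative and GFP-positive libraries came from 1 preparation was not tested, and the model over 12 libraries treats them as independent.

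Genes named are Saa3, Hp, Lcn2, Rspo3 and Ereg, the 10 largest increases and decreases past the threshold with no overlap and a mean of at least 50 in the higher group (some given by their range only and some not reported here), and in each list the most changed and most abundant members. Predicted genes (Gm followed by digits, or names ending in Rik) and immunoglobulin segments were left out of the 10 largest changes. Others were added for their role after their values were seen. The genes, lists and tests were chosen with earlier results of these data known. Alternatives covered the pseudocount, the filter, the scaling, the variance model, the libraries in the fit, a block and a minimum fold, and left out each library in turn.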

Additional observations from a re-analysis of the deposited data

Results flagged for a closer look

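For 7 genes the test of the difference itself separated the DSS response of GFP-negative cells from that of GFP-positive cells, with limma's interaction over 12 libraries. Differences are log2 fold changes, GFP-negative minus GFP-positive. Gdpd2 had a difference of 4.77, with log2 fold changes of 5.38 in GFP-negative and 0.61 in GFP-positive cells. Fgf7 had a difference of 2.48, Alpl one of 2.29, Alcam one of 2.12 and Sfrp1 one of 1.98. Syn3 had a difference of -2.95 and Timp3 one of -2.29, with log2 fold changes of 0.40 in GFP-negative and 2.70 in GFP-positive cells for Timp3. All 3 GFP-negative DSS libraries lay above all 3 GFP-negative normal libraries for Gdpd2, Fgf7, Alpl, Alcam and Sfrp1.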

How the results depend on the processing

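The 785 increases and 556 decreases stayed within 1.5 times under other pseudocounts, filters, scalings and limma without trend and robust. They were 1146 and 915 in a fit of all 12 sorted libraries, 113 and 10 where a log2 fold change of at least 1 was required, and 67 and 9 by the FDR in the authors' deposited table, an alternative chosen after seeing the data. Without 1 library they ranged over 265 to 1102 increases and 95 to 780 decreases, with no change of sign among the 1341 calls. The cause of these differences was not tested. With the replicate block there were 937 increases, 668 decreases and 7 differences of responses. Of these 7, 5 were called without the block too and 2 were not (Igfbp6 and Lox), while Fgf7 and Sfrp1 missed the threshold (adjusted p = 0.075 and 0.0549). Same-numbered libraries are not shown to be paired. The 7 differences of responses were 11 with a pseudocount of 5 and 2 to 15 without 1 library. With a pseudocount of 0.5, Fgf7 missed the threshold (0.0511).

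Of 159 named genes put through these alternatives, 124 were called, and none of those called changed sign under any alternative. Genes that were not called did. Acta2 was at -0.099 with equal totals and -0.27 to 0.30 without 1 library, and Relb at 0.00059 with recomputed median-ratio scaling and -0.54 to 0.41 without 1 library. Without 1 library, Areg ranged over -0.68 to 0.93, Mmp2 over -0.12 to 0.44, Mx2 over -1.06 to 0.054, Slc2a1 over -0.67 to 0.0088 and Syn3 over -0.21 to 0.040. The cause was not tested. An edgeR test on recovered reads was not run, because rounding leaves no whole reads to recover. Where normal libraries hold a few reads, as for Ubd, Olfr94 and Gdpd2, depth limits the fold change to its counting interval.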

Other observations

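Genes of the hedgehog pathway, retinoid metabolism, pericytes and the unfolded protein response moved in small numbers. Over all genes tested, 6.03% were higher and 4.27% lower, and lists with few calls can lie near these shares. Of 11 hedgehog genes tested, 2 were lower with DSS and 0 higher. Ptch1, the receptor and a target of hedgehog signalling, had 206, 204 and 183 normalised counts with DSS, against 431, 555 and 438 in normal cells (log2 fold change -1.25 ± 0.23, adjusted p = 0.00613), and was called in each fit without 1 library. Of 12 retinoid genes, the 1 call was Aldh1a3, which makes retinoic acid, at 366, 453 and 387 with DSS, against 133, 167 and 148 in normal cells (1.42 ± 0.23, adjusted p = 0.00269). Of 9 pericyte genes, 3 were higher and 1 was lower. Kcnj8, a potassium channel subunit of pericytes, had 81, 62 and 81 with DSS, against 10, 23 and 14 in normal cells (2.25 ± 0.35, adjusted p = 0.00226). Both were called in each fit without 1 library.

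Of 25 genes of the unfolded protein response, 2 were higher and 2 were lower, beside 6.03% and 4.27% of all genes tested. With each library scaled to the same total, 0 were higher and 2 were lower. Chac1, a glutathione-degrading enzyme induced by ATF4, was at 0 in every DSS library, against 3, 28 and 26 in normal cells, at least 5.19-fold lower at a floor of 3 reads per library, a call lost without any 1 of DSS libraries 2 and 3 and normal libraries 2 and 3. Among transcription factors of mesenchyme, 27 were tested, 1 was higher and 1 was lower, beside 6.03% and 4.27% of all genes tested. Cebpb, a C/EBP factor, was higher at 1818, 1877 and 1076, against 524, 872 and 481 (1.35 ± 0.32, adjusted p = 0.0197), and Tcf21 was lower at 679, 346 and 406, against 1113, 1117 and 1487 (-1.42 ± 0.29, adjusted p = 0.0108). Cebpb was called in 3 and Tcf21 in 4 of the 6 fits without 1 library.

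Single values stand apart within the normal group. Traf7 had 86810 in normal library 2, where the other normal libraries had 213 and 157 and the DSS libraries 165, 84 and 80. Psmb6-ps2, a pseudogene, had 18591 in the same library, where the other normal libraries had 21 and 30 and the DSS libraries 15, 14 and 10. Neither passed limma's test (adjusted p = 0.470 and 0.463). By the authors' DESeq both belong to the 9 decreases, with false discovery rates of 4.38e-08 and 6.06e-14. The Y-linked gene Ddx3y was above 80 in every library of both groups, and Uty, also Y-linked, was called higher with DSS at 36, 26 and 34, against 13, 6 and 15 (1.49 ± 0.42, adjusted p = 0.0427), a call kept in 2 of the 6 fits without 1 library.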
